A study of Bos taurus with 8 samples.

Results

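Elastic fibres give tissues recoil. They consist of a core of crosslinked elastin laid down on microfibrils, which are polymers of the large glycoproteins called fibrillins, and fibulins and microfibril-associated proteins help to join the core to the scaffold. Microfibrils also occur without elastin, and in cartilage they form part of the matrix around chondrocytes, where elastic fibres have been described close to the articular surface. The genes described here encode 10 of these proteins: elastin (*ELN*), the fibrillins *FBN1* and *FBN2*, the fibulins *FBLN1*, *FBLN2*, *FBLN5*, *EFEMP1* and *EFEMP2*, and the microfibril-associated proteins *MFAP4* and *MFAP5*. They were chosen by gene symbol for what their proteins do, with earlier results of these data known. All 10 symbols were found among the 24596 genes of the count table.

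RNA-Seq was performed on wild-type bovine articular chondrocytes from the knee joints of calves aged 1 to 2 weeks. Superficial zone chondrocytes (SZCs) came from the outermost slice of each cartilage core and deep zone chondrocytes (DZCs) from its deepest slice, while the slice between them was discarded. Slices of a zone were pooled by joint, and the cells were released with enzymes and cultured with serum for 3 days, so both groups are short-term cultures and not fresh tissue. Each zone is represented by 2 libraries, described as duplicate biological samples. Levels are given as CPM, counts scaled to a common library size, here by the trimmed mean of *M* values (TMM). Log2 fold changes are those of SZCs over DZCs, so a positive value is a higher level in SZCs.

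Both cultures carried the transcripts of chondrocytes, and the superficial zone markers, already known from these data, were higher in SZCs. *COL2A1*, the main collagen of cartilage, took between 6.31% and 24.5% of all counts. Of the 9 chondrocyte markers, 1 passed in edgeR's exact test (2.93% of all genes tested did), the cartilage matrilin *MATN3*, which was higher in DZCs with a log2 fold change of -2.04 (FDR = 0.00212). Of these 9 markers 8 had a log2 fold change below 0, with a median of -1.10, whereas 46.6% of all genes tested were above 0. Wholly higher in DZCs were 5 of the 9, against 20.5% of all genes. *COL2A1* was among these 5, at -1.91 (FDR = 0.0658, edgeR's exact test). The part of these markers in the differences described here was not tested. All 6 superficial zone markers tested (*PRG4*, *VIT*, *THBS4*, *EPHA3*, *WIF1* and *CREB5*) were higher in SZCs at a false discovery rate (FDR) under 0.05 in edgeR's exact test. The paper reports the same genes as higher in SZCs from these libraries. Their passing here repeats that result and is no separate check of the zones. DZC replicate 1 stood apart, with the *COL2A1* share of 24.5% against 12.9% in DZC replicate 2 and a TMM factor of 0.735 against 1.08 to 1.14 in the other libraries. The members are therefore also described without it. With 1 library left out, the spread comes from the pair of the other zone, and the lone library is assumed to vary likewise. The FDR values of such fits depend on that pair and do not show by themselves what a difference rests on. DZC replicate 2 stood apart in another way, since it held 468 counts of the hypertrophic marker *MMP13* and 445 of the mineralization gene *ALPL*, against 0 and at most 10 counts in the other libraries. Library totals ranged from 19918970 to 21890549 counts, and 3 counts, the smallest number taken as detection, corresponded to between 0.129 and 0.187 CPM.

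Of the 10 genes, *ELN* and *FBN2* were higher in SZCs at an FDR under 0.05, and the other 8 did not pass. All 10 were among the 12857 genes tested, of which 2.93% passed in either direction, 2.23% as higher in SZCs and 0.700% as higher in DZCs. Of the 10, 8 had a log2 fold change above 0, against 46.6% of all genes tested. Their median log2 fold change was 0.87, against -0.04 over all genes tested. In 6 of the 10, both SZC libraries lay above both DZC libraries, an order that 21.0% of all genes tested showed. None of the 10 lay wholly higher in DZCs, an order shown by 20.5% of all genes. The calls of *ELN* and *FBN2* depended on the analysis. In edgeR's quasi-likelihood test without the replicate number, which called 0 genes at all against 1126 at an unadjusted p under 0.05, their FDR values were 0.407 and 0.406, and in the exact test with libraries scaled by their totals they were 0.0871 and 0.167. The other 6 alternatives that kept all libraries, DESeq2 among them, called both.

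**Figure D1:**
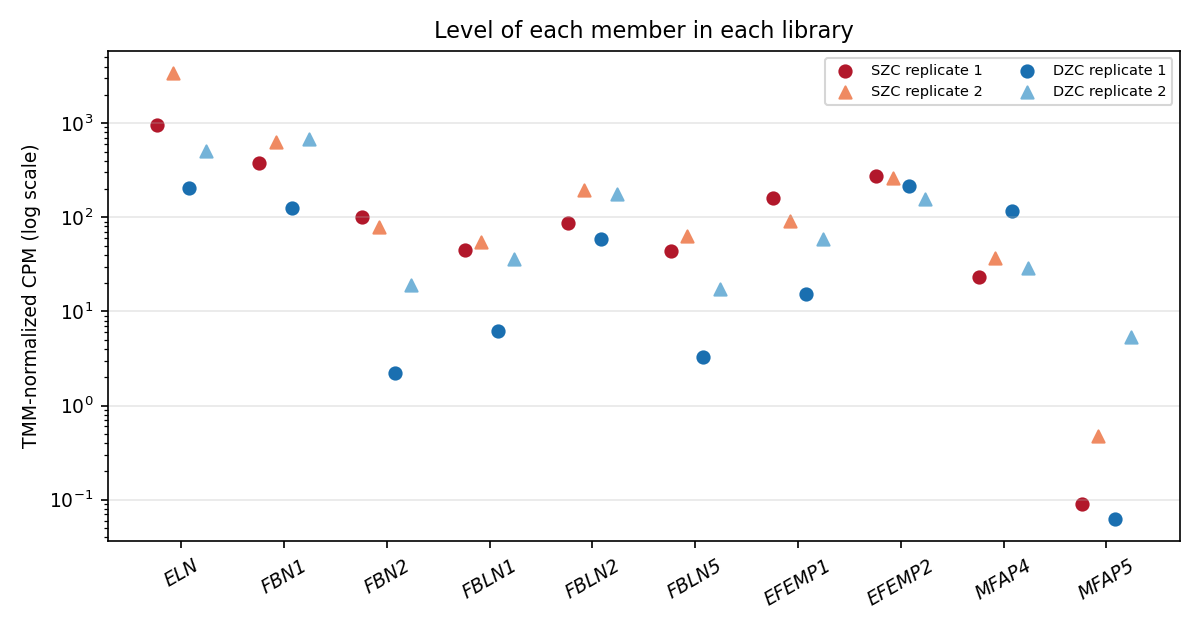
TMM-normalized CPM on a log scale for each of the 10 genes, with 1 point for each library (red and orange, SZCs; blue, DZCs; circles, replicate 1; triangles, replicate 2). The zones did not overlap for 6 of the 10, among them *ELN*, *FBN2* and *FBLN5*, and DZC replicate 1 was the lowest library for 8 of the 10 genes.

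Elastin is the rubber-like core of the fibre. *ELN* (ENSBTAG00000019517) was at 967 CPM in SZC replicate 1, 3409 CPM in SZC replicate 2, 205 CPM in DZC replicate 1 and 507 CPM in DZC replicate 2. Both SZC libraries were higher than both DZC libraries, but the SZC libraries differed from each other 3.53-fold. The SZC mean was 2188 ± 1727 CPM and the DZC mean 356 ± 214 CPM (SD, n = 2 each). On the log2 scale SZCs exceeded DZCs by 2.62 ± 0.73 (SE), which is 6.14-fold, at FDR = 0.0332 (edgeR's exact test). Without DZC replicate 1 this log2 fold change was 2.11 (FDR = 0.0522, edgeR's exact test). Without SZC replicate 2, the library with the most *ELN*, it was 1.44 (FDR = 0.762, edgeR's exact test).

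*ELN* alone took 0.107% of all counts in SZC replicate 1 (95% Wilson interval 0.105% to 0.108%) and 0.387% in SZC replicate 2 (0.385% to 0.390%). In DZC replicates 1 and 2 it took 0.0151% (0.0146% to 0.0156%) and 0.0549% (0.0539% to 0.0559%). The intervals reflect counting error alone, not the spread between cultures, and reads copied by PCR do not each stand for a molecule.

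Fibrillins build the microfibril. *FBN2* (ENSBTAG00000015307), whose protein is best known from developing tissues, was at 100.2 and 78.7 CPM in the SZC libraries and at 2.24 and 18.96 CPM in the DZC libraries. The SZC values lay close together and well above the DZC values, which differed 8.47-fold from each other. *FBN2* averaged 89.4 ± 15.2 CPM in SZCs against 10.6 ± 11.8 CPM in DZCs (SD, n = 2 each). Its log2 fold change of 3.07 ± 0.87 (SE), or 8.42-fold, had FDR = 0.0463 (edgeR's exact test). Without DZC replicate 1 it was 2.24 (FDR = 2.29e-08, edgeR's exact test). In that fit the spread comes from the SZC pair and the lone DZC library is assumed to vary like them. Without SZC replicate 1 the value was 2.89 (FDR = 0.0953, edgeR's exact test).

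*FBN1* (ENSBTAG00000002278), the fibrillin whose mutations cause Marfan syndrome, was at 374 and 633 CPM in the SZC libraries and at 126 and 685 CPM in the DZC libraries. The DZC libraries bracketed the SZC libraries. Its log2 fold change of 0.31 ± 0.79 (SE; 95% interval -1.23 to 1.85) did not pass (FDR = 1, edgeR's exact test). Its sign depended on the library left out, at -0.44 without DZC replicate 1, -0.12 without SZC replicate 2 and 2.02 without DZC replicate 2, where it passed (FDR = 3.44e-05, edgeR's exact test).

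Ratios of counts within a library do not depend on how libraries are scaled. For each *FBN1* count, SZC replicates 1 and 2 held 0.268 and 0.124 *FBN2* counts, whereas DZC replicates 1 and 2 held 0.0178 and 0.0277. The log2 ratio was higher in SZCs by 3.04, with a standard deviation between replicates of 0.78 in SZCs and 0.45 in DZCs. The SZC libraries held 2.59 and 5.39 *ELN* counts per *FBN1* count, whereas the DZC libraries held 1.63 and 0.740. Both ratios separated by zone, but an exact two-sided permutation test of 2 libraries against 2 cannot give a p below 0.333. Of 6 such ratios computed, chosen after the values were seen, 4 separated by zone. The log2 ratio of *FBLN1* to *FBLN2* was also higher in SZCs, by 1.38, and that of *MFAP4* to *ELN* was higher in DZCs (SZCs minus DZCs, -3.49). Those of *FBLN5* to *ELN* and *EFEMP2* to *EFEMP1* overlapped. As transcript lengths were not taken into account, a ratio is compared between libraries only and does not say which gene of a pair had more transcripts.

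**Figure D2:**
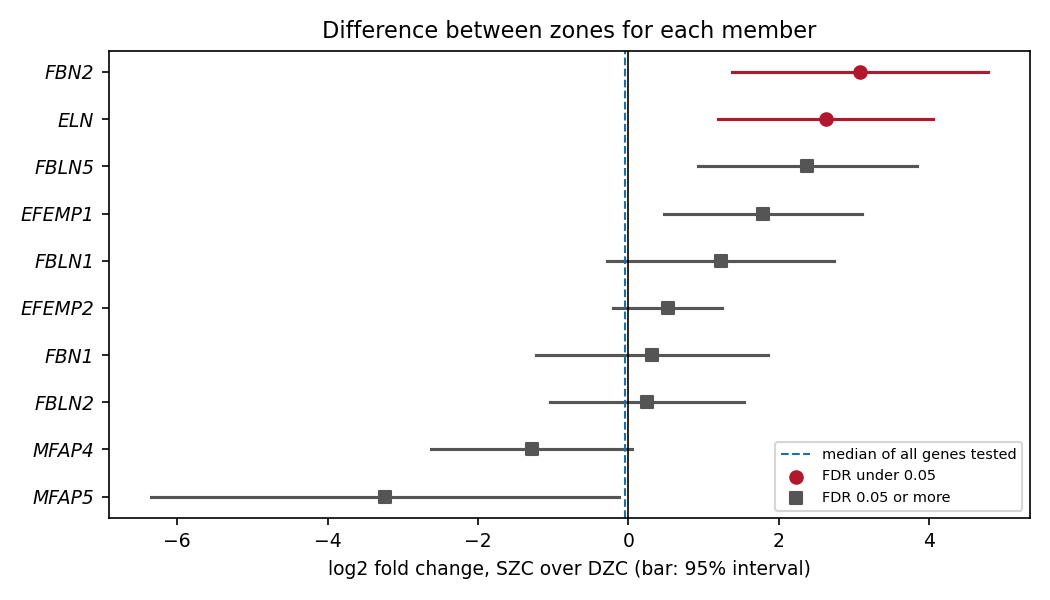
Log2 fold change of SZCs over DZCs for each of the 10 genes, with 95% intervals as bars (red circles, FDR under 0.05; grey squares, FDR of 0.05 or more; dashed line, median of all genes tested). *FBN2* and *ELN* lie farthest to the right, at 3.07 and 2.62, and the wide bar of *MFAP5* reflects counts of 1 to 120.

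The short fibulins bind elastin or help to place it on microfibrils. *FBLN5* (ENSBTAG00000018123), whose protein fibulin-5 links elastin to integrins and to the crosslinking enzyme LOXL1, was at 43.8 and 62.6 CPM in the SZC libraries and at 3.30 and 17.1 CPM in the DZC libraries. Every SZC value was above every DZC value. The log2 fold change of *FBLN5*, 2.38 ± 0.74 (SE; 95% interval 0.92 to 3.83), missed the threshold at FDR = 0.0769 (edgeR's exact test). It passed under 3 of 8 alternative analyses, among them DESeq2 (FDR = 0.022). Without DZC replicate 1 the log2 fold change was 1.64, and without DZC replicate 2 it was 4.03. Without SZC replicates 1 and 2 it was 2.61 and 2.09.

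*EFEMP1* (ENSBTAG00000017448), which encodes fibulin-3, was at 161 and 92.5 CPM in the SZC libraries and at 15.4 and 58.1 CPM in the DZC libraries. The zones did not overlap. Its log2 fold change of 1.78 ± 0.67 (SE) had FDR = 0.206 (edgeR's exact test), and it fell short of the threshold under each of the 8 alternatives, where the FDR in edgeR and DESeq2 ran from 0.0651 to 0.539. The value was 1.12 without DZC replicate 1 (FDR = 0.0909, edgeR's exact test) and 3.06 without DZC replicate 2 (FDR = 1.65e-10). *EFEMP2* (ENSBTAG00000021457), which encodes fibulin-4, a protein required for elastic fibre formation, varied least of the 10. It was at 277 and 259 CPM in the SZC libraries and at 215 and 158 CPM in the DZC libraries. SZCs exceeded DZCs by 0.52 ± 0.37 (SE; 95% interval -0.20 to 1.25) on the log2 scale (FDR = 0.837, edgeR's exact test), and by 0.76 without DZC replicate 1. A difference of *EFEMP2* was not detectable with 2 libraries a zone, and the interval leaves room for one of up to 1.25 on the log2 scale.

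The longer fibulins FBLN1 and FBLN2 are found in basement membranes and on elastic fibres. *FBLN1* (ENSBTAG00000012088) was at 44.7 and 54.8 CPM in the SZC libraries and at 6.22 and 36.3 CPM in the DZC libraries. The zones did not overlap, and the DZC libraries differed 5.84-fold from each other. *FBLN1* had a log2 fold change of 1.22 ± 0.77 (SE), which did not pass (FDR = 0.788, edgeR's exact test) and was 0.46 without DZC replicate 1 (FDR = 0.568). Without DZC replicate 2 it was 3.02 (FDR = 2.26e-14, edgeR's exact test). *FBLN2* (ENSBTAG00000004014) was at 86.2 and 195.0 CPM in the SZC libraries and at 58.9 and 179 CPM in the DZC libraries, so that the zones overlapped. The difference was 0.24 ± 0.66 (SE) on the log2 scale (FDR = 1, edgeR's exact test), and it was -0.34 without DZC replicate 1 and -0.46 without SZC replicate 2. Without DZC replicate 2 *FBLN2* passed as higher in SZCs, at 1.28 (FDR = 0.0374, edgeR's exact test).

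MFAP4 and MFAP5 attach to microfibrils, MFAP4 also to elastin, and their genes were the only members of the 10 with a log2 fold change below 0. *MFAP4* (ENSBTAG00000006187) was at 22.9 and 36.6 CPM in the SZC libraries and at 117 and 28.6 CPM in the DZC libraries. A single library, DZC replicate 1, was high, and the other 3 lay close together. Its log2 fold change of -1.29 ± 0.68 (SE) did not pass (FDR = 0.634, edgeR's exact test), and it was 0.06 without DZC replicate 1 and -1.95 without DZC replicate 2, where it passed (FDR = 1.13e-07). *MFAP5* (ENSBTAG00000000310) had 2 and 11 counts in the SZC libraries against 1 and 120 counts in the DZC libraries. It was above detection in SZC replicate 2 and DZC replicate 2 and below 3 counts in both replicate 1 libraries. The log2 fold change of *MFAP5*, -3.24 ± 1.59 (SE), did not pass (FDR = 0.678, edgeR's exact test). The value was -4.21 without DZC replicate 1, where it passed (FDR = 6.47e-06, edgeR's exact test), and 2.11 without DZC replicate 2, so the 120 counts of that library set its sign.

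The 10 genes together took 0.229% of all counts in SZC replicate 1 and 0.548% in SZC replicate 2, against 0.0550% in DZC replicate 1 and 0.183% in DZC replicate 2. Their make-up also differed. *ELN* gave 46.6% and 70.7% of the summed counts in the SZC libraries, whereas it gave 27.4% and 29.9% in the DZC libraries. *FBN1* gave 18.0% and 13.1% in SZCs, and its share was 16.8% and 40.5% in DZCs. In DZC replicate 1 *EFEMP2* held the largest share of the sum, 28.8%, and in DZC replicate 2 *FBN1* did. As transcript lengths were not taken into account, this is an order of counts and not of transcripts. The DZC libraries thus lay close in their *ELN* share and apart in those of *FBN1* and *EFEMP2*.

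**Figure D3:**
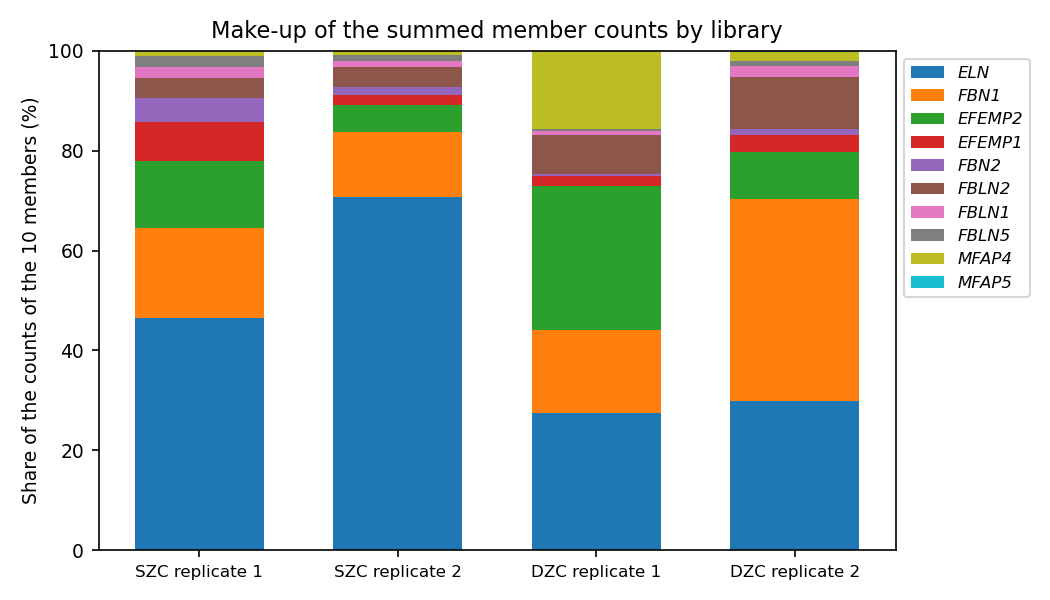
Stacked shares, in percent, of the summed counts of the 10 genes in each library, from 0 to 100. *ELN* (the lowest segment) takes 46.6% and 70.7% in SZCs but 27.4% and 29.9% in DZCs, and the wide *MFAP4* segment is seen in DZC replicate 1 alone.

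The spread between the DZC libraries was shared by most of the 10 genes. DZC replicate 2 was higher than DZC replicate 1 for 8 of the 10, as it was for 51.0% of all genes tested. The exceptions were *EFEMP2* and *MFAP4*. Among those 8, the ratio of DZC replicate 2 to replicate 1 ran from 2.47 for *ELN* to 86.5 for *MFAP5*, whose count in DZC replicate 1 was 1. In the SZC libraries the ratio of replicate 2 to replicate 1 ran from 0.576 for *EFEMP1* to 5.22 for *MFAP5*, and 7 of the 10 were higher in replicate 2, against 50.0% of all genes tested. No condition separates the replicates of a zone.

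Leaving out each library in turn showed how the differences moved, although calls then depend on the spread of the pair in the other zone. Without DZC replicate 1, 3 of the 10 passed, with *FBN2* and *FBLN5* higher in SZCs and *MFAP5* higher in DZCs, where 6.68% of all genes passed, 4.17% and 2.51% in those directions. Without DZC replicate 2, 8 of the 10 passed, where 21.5% of all genes did. Of these, 7 were higher in SZCs, as were 12.9% of all genes, and *MFAP4* was higher in DZCs, as were 8.65%. Without SZC replicate 1 or without SZC replicate 2, 1 of the 10 passed, *ELN* in the first case and *FBN2* in the second, both higher in SZCs. Over all genes, 0.529% passed in the first case (0.482% higher in SZCs and 0.0467% higher in DZCs) and 1.26% in the second (1.01% and 0.249%). The log2 fold changes of *ELN*, *FBN2*, *FBLN1*, *FBLN5*, *EFEMP1* and *EFEMP2* were above 0 with any 1 of the libraries left out, and those of the other 4 genes changed sign.

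**Figure D4:**
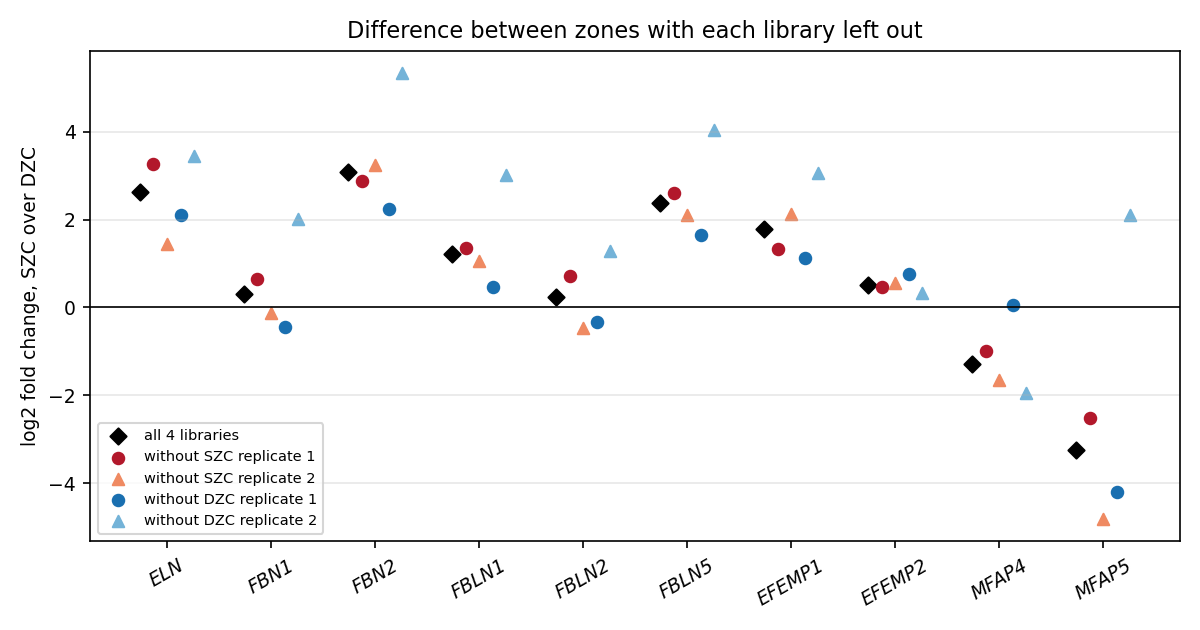
Log2 fold change of SZCs over DZCs for each of the 10 genes with all 4 libraries (black diamonds) and with each library left out (red and orange, an SZC library; blue, a DZC library). *ELN* runs from 1.44 to 3.44 and *FBN2* from 2.24 to 5.34, while *FBN1*, *FBLN2*, *MFAP4* and *MFAP5* have points on both sides of 0.

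Proteins that bind fibrillins or sit in microfibrils formed the first list of partner genes. Of 21 listed genes 19 were tested, 4 were higher in SZCs at an FDR under 0.05 in edgeR's exact test and 0 were higher in DZCs, against 2.23% and 0.700% of all genes tested. The median log2 fold change of the 19 was 0.48, against -0.04 over all genes tested, and 13 were above 0. *THSD4*, which encodes ADAMTSL6, a promoter of fibrillin assembly, was at 78.3 and 84.1 CPM in SZCs and at 4.79 and 7.35 CPM in DZCs. This is a log2 fold change of 3.73 ± 0.38 (SE) at FDR = 1.14e-15 (edgeR's exact test). Leaving out 1 library at a time moved it no further than 3.47 to 4.10, and 4 of 4 such fits passed.

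*VCAN*, the proteoglycan versican that binds fibrillin, was at 2188 and 1844 CPM in SZCs and at 44.2 and 256 CPM in DZCs, a log2 fold change of 3.75 ± 0.78 (SE) at FDR = 0.00211 (edgeR's exact test). It was 2.98 without DZC replicate 1 and 5.53 without DZC replicate 2. *LTBP1*, a latent TGF-β binding protein of the fibrillin superfamily, was at 226 and 253 CPM in SZCs and at 20.3 and 76.5 CPM in DZCs, a log2 fold change of 2.31 ± 0.64 (SE) at FDR = 0.0256 (edgeR's exact test). This value was 1.65 without DZC replicate 1 and 3.58 without DZC replicate 2. *ADAMTSL3*, a secreted relative of the ADAMTS proteases without protease activity, was at 56.6 and 54.5 CPM in SZCs and at 16.1 and 24.7 CPM in DZCs, a log2 fold change of 1.45 ± 0.38 (SE) at FDR = 0.0099 (edgeR's exact test). In all 4 genes, which were named because they passed, the zones did not overlap. Of the 19 tested, 10 lay wholly higher in SZCs and 1 in DZCs, against 21.0% and 20.5% of all genes tested. *LTBP1* and *ADAMTSL3* missed the threshold without SZC replicate 1 (FDR 0.106 and 0.854, edgeR's exact test), without SZC replicate 2 (FDR 0.0821 and 0.51) and with totals scaling (FDR 0.123 and 0.0546), and the quasi-likelihood test without the replicate number called 0 of the 19. Among those that did not pass, the largest values were 1.46 for *LTBP2* (FDR 0.64) and 1.21 for *ADAMTSL4* (FDR 0.149), both by edgeR's exact test, and both passed without DZC replicate 2, at 3.11 and 1.71 (FDR 2.97e-09 and 2.57e-05).

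Proteins that assemble and crosslink the fibre formed the second list. Of 16 listed genes 15 were tested, 4 were higher in SZCs and 1 was higher in DZCs in edgeR's exact test, where 2.23% and 0.700% of all genes tested were. Their median log2 fold change was 0.60, against -0.04 over all genes. *LOXL1*, the lysyl oxidase that acts on elastin together with fibulin-5, was at 161 and 206 CPM in SZCs and at 11.1 and 51.9 CPM in DZCs. SZCs exceeded DZCs by 2.54 ± 0.71 (SE) on the log2 scale (FDR = 0.0302, edgeR's exact test), by 1.83 without DZC replicate 1 and by 4.07 without DZC replicate 2. *EMILIN1*, named for its place at the interface of elastin and microfibrils, had a log2 fold change of 1.37 ± 0.38 (SE), with FDR = 0.0191 (edgeR's exact test). Its relative *EMILIN3* had 60 and 45 counts in SZCs against 4 and 5 counts in DZCs, a log2 fold change of 3.28 ± 0.80 (SE) with FDR = 0.00401 (edgeR's exact test). *DCN*, which encodes the small proteoglycan decorin, was at 1029 and 672 CPM in SZCs and at 114 and 270 CPM in DZCs, a log2 fold change of 2.15 with FDR = 0.00804 (edgeR's exact test) and of 2.92 without DZC replicate 2. Without SZC replicate 1, *EMILIN1*, *EMILIN3* and *DCN* missed the threshold (FDR 1, 0.735 and 0.427, edgeR's exact test), and without SZC replicate 2 *LOXL1*, *EMILIN1* and *EMILIN3* did (FDR 0.0647, 0.307 and 0.223). *LOXL1* was not called with totals scaling (FDR 0.133), and 0 of the 15 genes were called by the quasi-likelihood test that leaves out the replicate number.

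The gene of this list that was higher in DZCs was *LOXL4*, another lysyl oxidase. It was at 13.9 and 39.6 CPM in SZCs and at 61.5 and 856 CPM in DZCs, so that DZC replicate 2 stood far above the rest. *LOXL4* had a log2 fold change of -4.10 ± 1.09 (SE) at FDR = 0.0452 (edgeR's exact test), which was -1.18 without DZC replicate 2 (FDR = 0.0628, edgeR's exact test). It was also not called without SZC replicate 1 (FDR 0.3), in DESeq2 (FDR 0.189) or with totals scaling (FDR 0.161). Of the 5 lysyl oxidase genes, 1 lay wholly higher in SZCs (*LOXL1*) and 3 wholly higher in DZCs, orders that 21.0% and 20.5% of all genes tested showed. Besides *LOXL4* these were *LOXL2* and *LOXL3*, named after their values were seen, with log2 fold changes of -1.10 and -1.14 and FDR values of 0.262 and 0.136 in edgeR's exact test, and *LOXL3* passed in DESeq2 (FDR 0.0382). *LOX* itself overlapped between the zones. The largest values in the list that did not pass were 1.59 for *HMCN1* (FDR 0.687) and -1.22 for *FN1* (FDR 0.785), by edgeR's exact test. Both moved with the library left out. *HMCN1* was at 0.74 without SZC replicate 2, 0.80 without DZC replicate 1 and 2.12 without SZC replicate 1, and it passed at 3.51 without DZC replicate 2 (FDR 2.4e-07, edgeR's exact test). *FN1* passed at -1.93 without DZC replicate 1 (FDR 0.00023) and was at 0.30 without DZC replicate 2, by edgeR's exact test.

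**Figure D5:**
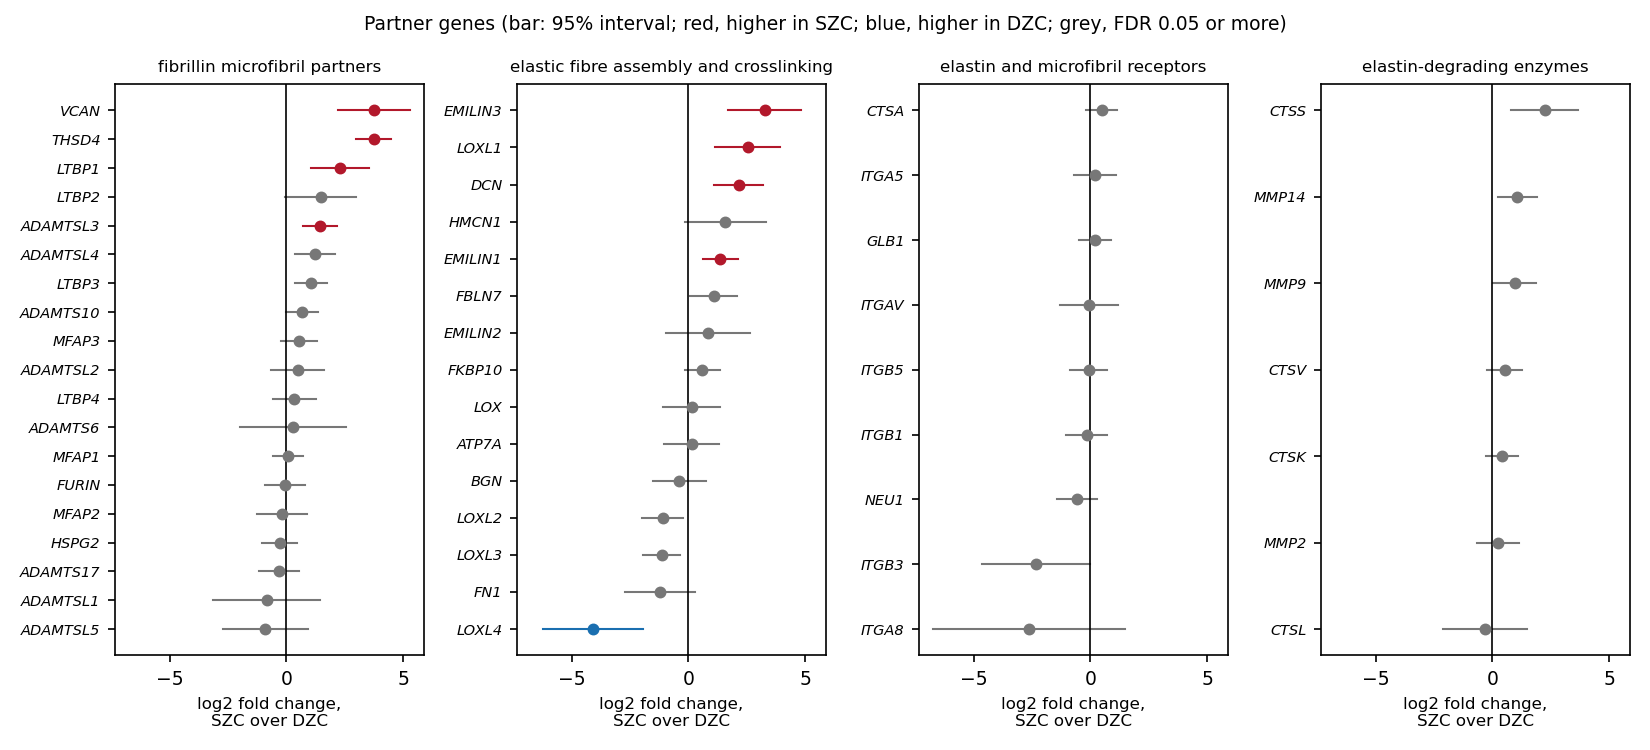
Log2 fold change of SZCs over DZCs for the tested genes of 4 partner lists, with 95% intervals as bars (red, higher in SZCs at an FDR under 0.05; blue, higher in DZCs; grey, FDR of 0.05 or more). The first list has 4 red points of 19, the second has 4 red points and 1 blue point of 15, and the receptors and the degrading enzymes have none.

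Receptors and degrading enzymes were the last lists. Of 9 receptor genes tested, 0 passed in edgeR's exact test, near the 2.93% of all genes that did, and the median log2 fold change was -0.07. The widest differences were those of *ITGA8* (-2.62) and *ITGB3* (-2.34), integrin subunits with 17 counts or fewer in replicate 1 of each zone. Their direction rested on DZC replicate 2, without which both values were above 0, that of *ITGB3* at 0.65. *ITGA8* had 0 counts in DZC replicate 1, so its value without DZC replicate 2 has no firm size. Without DZC replicate 1 the values were -3.60 for *ITGA8* and -3.23 for *ITGB3*. Of 7 elastin-degrading enzymes tested, 0 passed in edgeR's exact test, and 6 of the 7 had a value above 0, as had 46.6% of all genes, with a median of 0.52 against -0.04. *CTSS*, the elastin-cleaving cathepsin S, had a log2 fold change of 2.23 at FDR = 0.103 (edgeR's exact test), and *MMP14*, a membrane-bound metalloproteinase, one of 1.07 at FDR = 0.234 (edgeR's exact test). In DESeq2 the FDR of *CTSS* was 0.0445, and *MMP14* passed in the exact test with totals scaling (FDR 0.0235). At an unadjusted p under 0.05, the exact test called 0 of the receptors and 3 of the enzymes, and 9.09% of all genes tested, whereas at an FDR under 0.05 DESeq2 called 0 receptors and 1 enzyme and the quasi-likelihood test without the replicate number called 0 of both.

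The genes with a pattern most like that of *ELN* were found among 9789 tested genes with a mean of at least 100 counts, by the root mean square difference of log2(CPM + 1) over the 4 libraries after each gene was centred on its mean. They were *ECM2* (0.36), *COL8A1* (0.42) and *MDGA1* (0.44). *ECM2*, a matrix protein gene, was at 63.4 and 135 CPM in SZCs and at 10.6 and 38.9 CPM in DZCs. For *MFAP5*, the nearest were *FOSL1* (0.12), *FHL2* (0.17) and *FN1* (0.22), all highest in DZC replicate 2. *MFAP5* was at 0.0909 and 0.474 CPM in SZCs and 0.0622 CPM in DZC replicate 1, where the added 1 hides most of its differences. Its ratio of DZC replicate 2 to replicate 1 was 86.5, against 4.64 for *FN1*, so this likeness is weak. For *FBLN5*, looked at after the values were seen, the nearest were *LOXL1* (0.14), *LTBP1* (0.14) and *COL8A1* (0.15), of which *LOXL1* and *LTBP1* stand on the partner lists. With 4 libraries such nearness is a description only.

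Markers of other cell types were also summed in each library. Those of fibroblasts, synovial lining and tendon cells summed to 16537 to 24817 CPM in SZCs and to 3377 to 13558 CPM in DZCs. The ranges did not overlap, and 0 of the 9 tested passed in edgeR's exact test. Their median log2 fold change was 0.75. Of the 9, 3 lay wholly higher in SZCs and 1 in DZCs, against 21.0% and 20.5% of all genes tested. Of all genes tested 2.93% passed and 46.6% were above 0. Of those 9, 6 had a log2 fold change above 0 and 3 below 0, from -2.50 for *POSTN* to 1.77 for *COL1A2*, with *COL3A1*, highest on average over the 4 libraries, at 1.44. *TNMD*, a tendon marker, had at most 10 counts in any library. Markers of smooth muscle cells and pericytes summed to 64.9 to 225 CPM in SZCs and to 91.6 to 559 CPM in DZCs. The zones overlapped there, and 0 of 7 passed in edgeR's exact test, with 4 of the 7 above 0, both near those shares, and a median log2 fold change of 0.53. *ACTA2*, highest on average over the 4 libraries, had a value of -1.80, with 11.5 and 93.2 CPM in SZCs and 53.2 and 311 CPM in DZCs, and *PDGFRB* one of 1.42. Endothelial markers summed to 5.32 and 10.6 CPM in SZCs and to 3.86 and 7.80 CPM in DZCs. *VWF* was the most abundant of them, and *CLDN5* was at 0 counts in 3 libraries. Leukocyte markers, with *CD14* the most abundant, summed to 17.1 and 27.2 CPM in SZCs and to 6.59 and 12.3 CPM in DZCs, without overlap. Of 4 endothelial and 3 leukocyte markers tested, 0 passed in edgeR's exact test. In each list 3 had a log2 fold change above 0, with medians of 0.83 and 1.38. Bone and hypertrophic markers summed to 110 and 104 CPM in the SZC libraries, 19.1 CPM in DZC replicate 1 and 270 CPM in DZC replicate 2. The matrix phosphoprotein gene *SPP1* gave most of each sum, at 108, 102, 18.9 and 201 CPM in that order. Most counts of 5 of the other 6 markers lay in DZC replicate 2, with, besides *MMP13* and *ALPL*, 268 of *IBSP*, 140 of *SP7* and 221 of *COL10A1* there against at most 2, 8 and 23 in the other libraries. *BGLAP*, the osteocalcin gene, was an exception, with 6 counts in SZC replicate 1 and 1 in each of the other libraries. Of the 10 elastic fibre and microfibril genes 8 were also higher in DZC replicate 2 than in DZC replicate 1. The part of these cells in the results was not tested, and in bulk RNA a lower number of cells of a type and less RNA in each cell cannot be told apart.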

How the data were processed

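The deposited values are read counts per gene without normalization. The authors aligned single-end reads with STAR 2.5.2b to Ensembl build UMD 3.1 (version 88) and counted them without regard to strand, so reads of genes that overlap on both strands are mixed. A second deposited table holds the authors' own fold changes and FDR values, which were not used. Its gene symbols filled 8 of 6119 blank names. Library columns were matched to labels by zone and replicate number.

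Zones were compared in edgeR 4.0.16 (R 4.3.3) by the exact test named in the study's methods, with TMM scaling, default dispersions and filter, Benjamini–Hochberg adjustment over all 12857 genes tested and a threshold of 0.05. Standard errors follow the negative binomial model. No library was a second copy of its replicate (chi-square of their counts per degree of freedom 65.6 for SZCs and 313 for DZCs). The fits were tested on simulated data. Where gene-wise dispersions were simulated, the exact test made false calls above its threshold, as did the quasi-likelihood test to a lesser degree, which bears on calls near 0.05. Alternatives were the quasi-likelihood test with and without the replicate number, DESeq2 1.42.0, other filters, scalings and dispersions, and each library left out. The members and lists were chosen with earlier results of these data known. Named genes are the 10 members and, in each partner list, those that passed and the 2 others with the largest fold change. In each marker list they are the most abundant gene and those that passed, with further markers named after their values were seen. Sequences, transcript lengths and genome coordinates of this build were not used here.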

Additional observations from a re-analysis of the deposited data

How the results depend on the processing

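Without the replicate number, edgeR's quasi-likelihood fit called 0 genes, and so 0 in each direction, 0 of the 10 members, 0 fibrillin microfibril partners and 0 assembly and crosslinking genes, with 1126 genes at an unadjusted p under 0.05. *ELN* and *FBN2* were at unadjusted p-values of 0.0179 and 0.0177 there, and at FDR values of 0.407 and 0.406. With libraries scaled by their totals alone, 0 members, 2 microfibril partners and 44 genes higher in DZCs were called, and the FDR of *ELN* was 0.0871 and that of *FBN2* 0.167 in edgeR's exact test. The median log2 fold change of all genes moved by 0.30 with that scaling, and the calls higher in SZCs were 86.7% of all, against 76.1%. In each of DESeq2, totals scaling, common then gene-wise dispersion and the replicate block, 1 elastin-degrading enzyme was called, *MMP14* with totals scaling and *CTSS* in the other 3. *FBLN5* passed in DESeq2, with common then gene-wise dispersion (FDR 0.00823) and with the block. The cause of these changes was not tested.

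The libraries share replicate numbers, but nothing shows that a number marks a shared joint. Across genes, the replicate difference in SZCs correlated with that in DZCs (0.42). With the replicate block, 347 genes passed the quasi-likelihood test, 277 of them shared with the 377 of the exact test, and 3 members, *ELN* (FDR 0.0296), *FBN2* (FDR 0.0332) and *FBLN5* (FDR 0.0153). *HMCN1* was called with the block (FDR 0.0274), and *EMILIN1* and *DCN* were not (FDR 0.0556 and 0.062).

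With each library left out, calls ranged from 68 to 2768 over all genes (62 to 1656 higher in SZCs, 6 to 1112 higher in DZCs), from 1 to 8 for the members, 2 to 9 for microfibril partners, 1 to 9 for assembly genes, 0 to 3 for receptors and 0 to 2 for degrading enzymes. The log2 fold change ranged from -0.44 to 2.02 for *FBN1*, -0.46 to 1.28 for *FBLN2*, -1.95 to 0.059 for *MFAP4* and -4.82 to 2.11 for *MFAP5*. Under the 8 alternatives that keep all libraries, each of the 10 members kept its direction wherever it had a value. *MFAP5* had none with the filter of CPM over 1 in 2 libraries, which removed it. Depth limits *MFAP5*, with at most 2 counts in both replicate 1 libraries, more than the other 9, whose lowest count was 36.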
